A study of Mus musculus with 4 samples.

Results

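The interferon stimulated genes followed here are 46 mouse genes that cells switch on in response to type I interferon, out of 32285 genes counted in each library. The rule takes them by name and uses no measured value, and each of the 46 has 1 row in all 4 count matrices. Mouse hearts were studied by single-cell RNA sequencing in droplets, a method that tags and counts the 3' ends of transcripts (UMIs, unique molecular identifiers), with 1 library for each of 4 groups. These are a control, a sham group, mice with cecal ligation and puncture (CLP, a surgical model of sepsis in which gut bacteria enter the abdomen), and CLP with low-level tragus stimulation, a mild electrical stimulation of the outer ear near a vagus nerve branch, called CLP plus stimulation. Neither strain, age, sampling time nor how many animals gave a library is stated in the sources used here. With 1 library a group no test is possible, and the effect of a treatment and any other difference between 2 libraries cannot be told apart. Every interval below covers counting error only.

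Type I interferons, mainly interferon alpha and beta, bind the receptor pair IFNAR1 and IFNAR2, whose kinases JAK1 and TYK2 phosphorylate transcription factors such as STAT2. With IRF9, STAT2 forms part of the complex ISGF3, which binds the interferon stimulated response element (ISRE) in the promoters of target genes. The products sense foreign nucleic acid, block viral translation and entry, tag proteins with ISG15, and damp the signal again. In bacterial sepsis the same programme can be started through Toll-like receptors and cytosolic sensors, and nearly all cells of the heart carry the receptor.

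Each cell was assigned to the class with the most detected markers out of 6, with at least 3 detected and a lead of at least 1 over the next class. Class names carry the ending -like because they rest on these markers alone, and classes were compared where both libraries held at least 20 cells. This gave, in the order control, sham, CLP, CLP plus stimulation used throughout, 4173, 3173, 1735 and 3217 macrophage-like cells and 3216, 1660, 2010 and 535 endothelial-like cells. Fibroblast-like cells numbered 2940, 1599, 1865 and 1108, and neutrophil-like cells 142, 206, 238 and 481. Between 10.1% and 24.5% of the cells of a library were assigned to no class. A lead of exactly 1 marker, just inside the rule, was held by 149, 111, 190 and 519 macrophage-like cells in the same library order. Among neutrophil-like cells of CLP plus stimulation it was held by 211 of 481. The median cell of every macrophage-like, endothelial-like, fibroblast-like and neutrophil-like class held at least 4 of its own 6 markers. Total depth ran from 54611436 to 59465046 UMIs a library, and median depth per kept cell from 2995 in control to 5482 in CLP. Pairs of libraries shared 15 to 46 cell barcodes, at most 0.596% of the smaller library. The 6 neutrophil markers summed to 169, 232, 1850 and 1329 CPM (UMIs per 1000000 UMIs of the class) in macrophage-like cells, 26.4, 97.4, 391 and 543 CPM in endothelial-like cells and 17.5, 57.9, 309.7 and 482 CPM in fibroblast-like cells. Neutrophil transcripts were thus higher in both CLP groups in all 3 classes. The same held in cardiomyocyte-like cells, at 54.4, 172, 1221 and 1508.5 CPM. Pericyte-like cells held 51.9, 94.8, 693 and 797 CPM, and smooth muscle-like cells 34.1, 49.6, 330 and 397 CPM. With at most 1 neutrophil marker, 680 of the 1735 macrophage-like cells of CLP and 1337 of the 3217 of CLP plus stimulation remained. In sham 2878 of 3173 did. Of the other classes of CLP, 146 of the 215 cardiomyocyte-like and 12 of the 24 T cell-like cells remained. The part of neutrophil transcripts in the results was not tested. Leaving out cells with more than 1 neutrophil marker moved 1 median or count of the abundant classes, given beside it. Another 35 stayed within their limits. Among the other values, mainly ratios of single members, 48 moved and 325 did not, and those that moved are not listed. Neutrophil-like and monocyte-like cells were exempt from this limit, so their unmoved values, among the 35 and the 325, were fixed in advance.

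The promoters of the members were searched for 1 exact form of the ISRE core. RefSeq start sites of GRCm38.p6 were found for 37 of the 46 members. The letters GAAANNGAAA, an ISRE core (TTTCNNTTTC on the other strand), on either strand and with overlapping matches allowed, occurred within 250 bases upstream of a start site in 15 of these 37 (40.5%), against 936 of 27025 genes (3.46%). The letters TTCNNNGAA, the palindromic GAS element of interferon gamma targets, occurred in 5 of 37 (13.5%), against 8.13% of all genes. A match is a description of the sequence and not a measured binding site. A missing match does not show that an ISRE is absent, since only these letters before RefSeq start sites were sought. Below are the 150 bases before the start site, 5' to 3' on the gene's strand, with GAAANNGAAA matches in capitals. The first 3 members were among those at least 2-fold higher in the most cell classes in CLP over sham (9 classes for Ifitm3, 7 for Oasl2 and Irf7), and the next 3 had the lowest ratio in macrophage-like cells. Isg15 (7 classes) and Ifit1, canonical targets, were added after their values had been seen.
Ifitm3: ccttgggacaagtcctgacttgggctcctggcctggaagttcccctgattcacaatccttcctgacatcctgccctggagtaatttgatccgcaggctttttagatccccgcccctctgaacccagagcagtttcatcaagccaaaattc
Oasl2: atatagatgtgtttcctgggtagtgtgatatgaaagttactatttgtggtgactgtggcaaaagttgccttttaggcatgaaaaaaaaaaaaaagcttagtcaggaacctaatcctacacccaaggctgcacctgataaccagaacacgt
Irf7: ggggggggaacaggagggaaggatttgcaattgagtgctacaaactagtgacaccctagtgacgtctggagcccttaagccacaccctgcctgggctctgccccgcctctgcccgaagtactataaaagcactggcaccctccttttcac
Ifit2: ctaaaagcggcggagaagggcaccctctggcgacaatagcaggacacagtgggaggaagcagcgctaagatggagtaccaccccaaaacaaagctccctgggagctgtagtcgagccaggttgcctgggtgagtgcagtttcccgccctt
Ddx60: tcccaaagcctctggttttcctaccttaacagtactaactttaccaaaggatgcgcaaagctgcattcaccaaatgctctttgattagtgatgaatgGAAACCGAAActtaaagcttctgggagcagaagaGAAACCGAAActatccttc
Ifi203: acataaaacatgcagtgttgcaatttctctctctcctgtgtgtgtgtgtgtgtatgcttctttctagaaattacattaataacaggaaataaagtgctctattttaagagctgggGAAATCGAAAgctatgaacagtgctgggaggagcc
Isg15: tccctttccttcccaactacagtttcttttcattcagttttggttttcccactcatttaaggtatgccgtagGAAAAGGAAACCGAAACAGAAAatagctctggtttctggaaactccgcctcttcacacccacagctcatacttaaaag
Ifit1: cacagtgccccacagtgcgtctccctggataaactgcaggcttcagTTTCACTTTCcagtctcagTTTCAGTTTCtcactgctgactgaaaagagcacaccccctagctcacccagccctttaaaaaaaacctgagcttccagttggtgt
In GRCm38.p6 these stretches lie at chr7:141010745-141010894 (Ifitm3, minus strand), chr5:114896784-114896933 (Oasl2, plus), chr7:141266425-141266574 (Irf7, minus), chr19:34550544-34550693 (Ifit2, plus), chr8:61927937-61928086 (Ddx60, plus), chr1:173942493-173942642 (the second start site of Ifi203, minus), chr4:156200819-156200968 (Isg15, minus) and chr19:34640739-34640888 (Ifit1, plus). Isg15 held 3 overlapping matches that form 1 run, starting at -78, -72 and -66 from the start site. Ifit1 held them at -104 and -85, Ddx60 at -53 and -19, and Ifi203 at -35. Ifitm3, Oasl2, Irf7 and Ifit2 held no match to these letters in the 250 bases. By GENCODE vM21, a GRCm38 annotation, the 6 OAS members all lie on chromosome 5 and the 4 IFIT members on chromosome 19. Ifit3 with Ifit3b, Oas1a with Oas1g, Oasl1 with Oasl2, and Ifi203, Ifi204 and Ifi207 are related genes. The likeness of their transcripts was not measured, so how far the split of reads within each set is uncertain was not tested.

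Levels below are the CPM of a class in 1 library, pooled from all its cells, and ratios are on the log2 scale with a prior of 0.5 counts. A member was counted in a comparison with at least 20 counts over its 2 libraries, and was called higher or lower when it differed by at least 2-fold. In CLP over sham the median ratio of the counted members was above that of all counted genes in 11 of 11 classes. It reached 1.56 in cardiomyocyte-like cells (16 of 46 members counted) and 1.28 in smooth muscle-like (28 counted) and endocardial-like cells (14 counted). It was 0.93 in endothelial-like (45 counted) and pericyte-like cells (31 counted) and 0.73 in fibroblast-like cells (44 counted). In macrophage-like cells it was 0.01, against -0.23 for all genes. Where few members were counted, those high in 1 of the 2 libraries reached 20 counts more readily, so these medians are not like for like. In CLP plus stimulation over CLP the members' median was below that of all genes in 8 of 9 classes, and T cell-like cells, at 0.31 against 0.22, were the exception. In sham over control 7 of 13 class medians were above 0, those of the 4 abundant classes among them. Endothelial-like cells had 36 of 45 counted members higher (median 0.16 against 0.07 over all genes). Fibroblast-like cells had 36 of 44 higher (0.19 against 0.05) and neutrophil-like cells 14 of 22 (0.17 against -0.10). The 6 medians below 0 were those of the other classes, called minor here, with 5 to 25 counted members. Neutrophil-like cells are named among the abundant classes, although control held 142 of them and 473 smooth muscle-like cells. Their median turned to -0.23 after thinning each cell to 1000 UMIs.

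**Figure D1:**
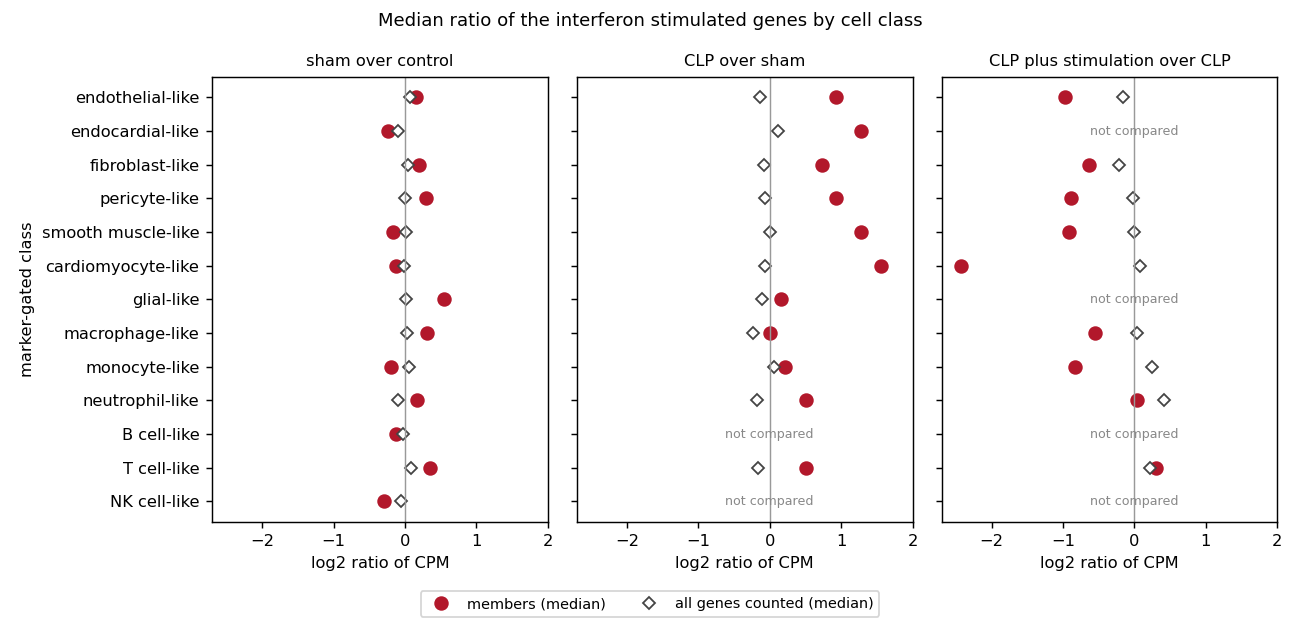
Median log2 ratio of CPM (horizontal axis) of the counted interferon stimulated genes (filled circles) and of all counted genes (open diamonds) in each marker-gated class, for 3 comparisons of 2 libraries. In CLP over sham the members lie right of all genes in 11 of 11 classes. The gap is widest in cardiomyocyte-like cells (1.56 against -0.07, from 16 of 46 members) and small in monocyte-like cells (0.21 against 0.07, from 29).

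In sham over control, macrophage-like cells had the highest median among the abundant classes. With TMM scaling it stayed at 0.31, and the neutrophil-like median was higher, at 0.42 from 22 counted members. In macrophage-like cells 41 of 45 counted members were higher in sham, with a median of 0.31 against 0.03 over all genes. Of these, 6 were called higher, where 1.61% of all genes were, and 0 were called lower, where 1.42% were. They were Ifit1, Ifit2, Rsad2, Isg15, Ifih1 and Oasl1, and both of the highest belong to the IFIT family, whose proteins bind foreign RNA and block its translation. In endothelial-like cells 1 member, Oas1g, was called higher (1.54% of all genes) and 0 lower (0.825%), in fibroblast-like cells 2 higher (0.886%) and 0 lower (1.14%), and in neutrophil-like cells 4 higher (4.49%) and 1 lower (5.86%). The minor classes held fewer counted members. In monocyte-like cells 0 of 17 were called higher (7.69%) and 2 lower (4.08%), in B cell-like cells 2 of 20 higher (3.86%) and 1 lower (3.28%), and in T cell-like cells 4 of 19 higher (12.7%) and 3 lower (7.2%). NK cell-like cells had 0 of 6 higher (5.36%) and 1 lower (3.93%), endocardial-like cells 0 of 5 higher (4.64%) and 1 lower (8.64%), and glial-like cells 3 of 10 higher (3.73%) and 0 lower (3.99%). Pericyte-like cells had 2 of 20 higher (2.6%) and 0 lower (2.73%), smooth muscle-like cells 0 of 25 higher (2.01%) and 1 lower (2.9%), and cardiomyocyte-like cells 2 of 10 higher (4.27%) and 1 lower (5.02%). With so few counted members these shares stand on 0 to 4 genes each.

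Ifit1 stood at 8.66, 58.3, 23.9 and 17.6 CPM in macrophage-like cells, in the library order given above. Sham was the highest of the 4 libraries, with a log2 ratio to control of 2.75 (95% interval 2.49 to 3.02). Ifit2 stood at 5.1, 23.5, 6.08 and 5.16 CPM, again highest in sham, with a ratio of 2.19. Rsad2, which encodes viperin, an enzyme that makes a chain-terminating nucleotide, stood at 16.8, 66.3, 36.9 and 25.1 CPM with a ratio of 1.98. Isg15, the ubiquitin-like modifier, stood at 103, 311, 179.6 and 91 CPM, at 1.59 (95% interval 1.51 to 1.67). Ifih1, the double-stranded RNA sensor MDA5, stood at 33.3, 91.8, 36.5 and 40.5 CPM, at 1.46. For each of these 5 genes sham was above the other 3 libraries and control was the lowest or within 1.2-fold of it. Oasl1, an OAS-like protein without synthetase activity, differed, standing at 24.9, 59, 74.2 and 34.5 CPM with its highest value in CLP. In neutrophil-like cells Rsad2 went the other way, at 216, 87.3, 49.9 and 68.2 CPM and a ratio of -1.29 (95% interval -1.88 to -0.72), and at -0.99 with doublets kept in, just short of 2-fold.

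On the ligand side of the pathway, sham again stood apart. Ifnb1, the gene of interferon beta, stood at 4.01, 91.6, 10.2 and 1.9 CPM in macrophage-like cells. In sham, 367 of 3173 macrophage-like cells (11.6%, exact binomial 95% interval 10.5 to 12.7) held at least 1 Ifnb1 UMI. The counts elsewhere were 24 of 4173 in control (0.575%), 26 of 1735 in CLP (1.5%) and 10 of 3217 in CLP plus stimulation (0.311%). Thinning each cell to 1000 UMIs left 5.34% in sham and 0.303%, 0.656% and 0.134% in the other 3, after leaving out 194 shallower cells of sham and 544, 57 and 224 of the others. Macrophage-like cells held 1768 Ifnb1 UMIs in sham, 95.9% of all Ifnb1 UMIs of that library's kept cells. The background in the same library was 6 of 1660 endothelial-like cells (0.361%), of which 1 cell held 46 of the 51 UMIs, and 9 of 1599 fibroblast-like cells (0.563%), and after thinning 0.126% and 0.0632%. No single cell gave the sham value, since the highest held 50 UMIs and the highest 10 together 321. The other interferon genes of the fixed list (Ifna1, Ifna2, Ifna4, Ifna5, Ifne, Ifnz, Ifnk, Ifnl2 and Ifnl3) did not reach 20 counts in any comparison of the abundant classes.

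A few members, Ifit1, Ifit2, Ifit3, Ifit3b, Isg15, Rsad2, Ifih1 and Irf7, were also read in macrophage-like cells split by Ifnb1. Within sham, each of them was higher in cells with an Ifnb1 UMI than in the 2806 without one. The other members were not split. Ifit1 was at 241 CPM in cells with an Ifnb1 UMI and at 28.8 CPM in cells without. Isg15 was at 797 and 233 CPM, Rsad2 at 248 and 36.9 CPM, and Ifih1 at 225 and 70.2 CPM. Irf7, the transcription factor that amplifies the response, was less different, at 61.7 and 41.2 CPM. Median depth was 6446 and 5645 UMIs in these 2 sets. Sham cells without an Ifnb1 UMI were still above the corresponding control cells, in which Ifit1 was at 8.02 CPM, Isg15 at 101 CPM and Rsad2 at 16.4 CPM. The few Ifnb1-positive cells of CLP plus stimulation, 10 in number, held Ifit1 at 310.4 CPM and Isg15 at 785 CPM. In all 4 libraries Ifit1 and Isg15 were higher in cells with the transcript than in cells without, and sham differed in how many such cells there were. Irf7 and Ifit3b did not keep this order. In CLP plus stimulation Irf7 was at 9.13 CPM with the transcript, from 1 count, and at 39.6 CPM without. Ifit3b had 0 counts in the cells with the transcript of control and CLP, against 2.87 and 2.75 CPM without. The sets were split after the values had been seen, and cells are not replicates.

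**Figure D2:**
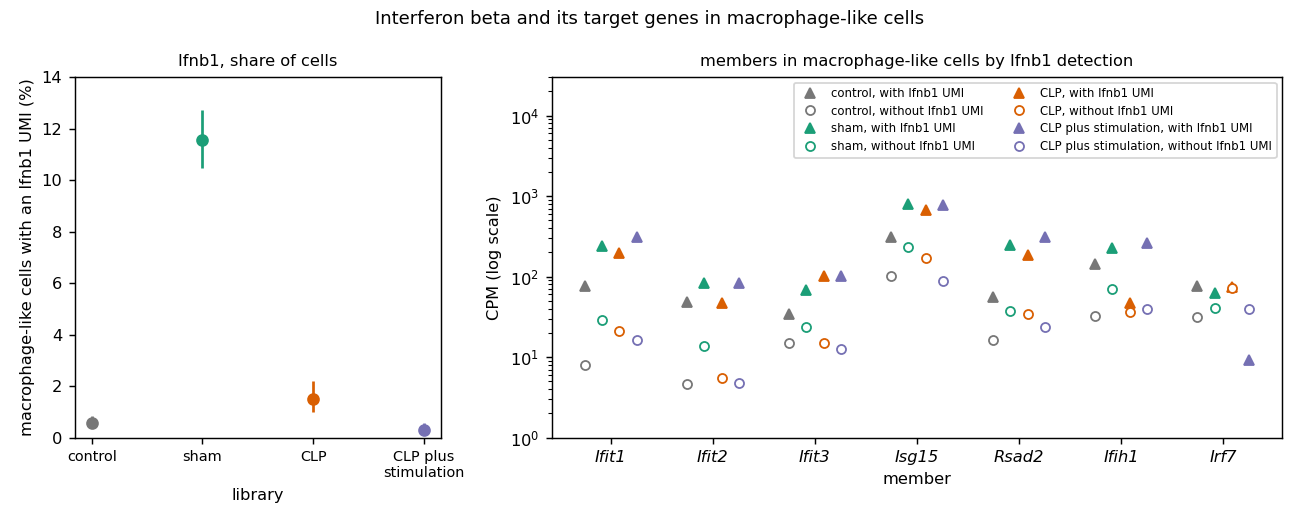
Left, share of macrophage-like cells with at least 1 Ifnb1 UMI in each library, with exact binomial 95% intervals; sham lies at 11.6% and the other libraries at or below 1.5%. Right, CPM (log scale) of 7 members in macrophage-like cells with (triangles) and without (open circles) an Ifnb1 UMI, coloured by library; in sham Ifit1 lies at 241 CPM with and 28.8 CPM without.

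CLP over sham asks how the library of the sepsis model differs from sham. In endothelial-like cells 43 of 45 counted members were higher in CLP, with a median of 0.93 against -0.14 over all genes. There 18 members were called higher, where 4.54% of all genes were, and 1 lower, where 7.01% were. In fibroblast-like cells 40 of 44 were higher, 12 called higher (3.82% of all genes) and 1 called lower (7.26%). In neutrophil-like cells 28 of 40 were higher, 13 called higher (9.9%) and 0 called lower (14.7%). Macrophage-like cells divided evenly, with 23 higher and 23 lower, 6 called higher (5.26%) and 5 called lower (17.5%). Scaling by TMM factors in place of total counts moved the median of all genes in macrophage-like cells from -0.23 to -0.05 and the members' split to 28 higher and 18 lower. Endothelial-like and fibroblast-like cells shared 9 of their called-higher members, 50% of the endothelial list and 75% of the fibroblast list, and both called Epsti1 lower at levels under 5 CPM.

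Among the signalling and transcription factors, Irf7 had the highest ratio within the 4 abundant classes, in endothelial-like cells. It stood at 98.6, 104, 536 and 258 CPM there, with a CLP over sham ratio of 2.37 (95% interval 2.27 to 2.47). CLP was at least 2-fold above each of the other libraries in that class. In fibroblast-like cells Irf7 stood at 39.8, 38.2, 71.2 and 48.9 CPM, in macrophage-like cells at 32.3, 44, 71.8 and 39.4 CPM and in neutrophil-like cells at 87.1, 62.6, 158 and 119 CPM, and CLP was the highest library in all 3. Stat2 stood at 44.4, 61.3, 95.6 and 72.5 CPM in endothelial-like cells and 25.1, 24, 35.7 and 36.2 CPM in fibroblast-like cells, at ratios of 0.64 and 0.57. In macrophage-like cells it stood at 23.6, 28, 18.6 and 26 CPM, lowest in CLP, at -0.59. In neutrophil-like cells, at 8.29, 16.5, 17.9 and 32.9 CPM, the interval of the ratio included 0. Irf9 had the same signs as Stat2, with ratios of 0.63 in endothelial-like, 0.76 in fibroblast-like and -0.25 in macrophage-like cells.

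In the feedback and ISG15 group, Usp18, the protease that removes ISG15 and blocks the receptor, was called higher in endothelial-like, fibroblast-like and macrophage-like cells. Its levels were 17.9, 21.9, 45.5 and 20.7 CPM in endothelial-like cells, 3.33, 6.42, 24.8 and 8.48 CPM in fibroblast-like cells and 7.75, 9.11, 29.9 and 19.1 CPM in macrophage-like cells. In neutrophil-like cells it stood at 4.15, 1.65, 9.25 and 25 CPM, too low to be counted against sham. CLP was the highest library in the first 3 classes and CLP plus stimulation in the last. Isg15 stood at 273, 289.8, 684 and 461 CPM in endothelial-like cells and 55.7, 63.6, 137 and 105 CPM in fibroblast-like cells, called higher in both at 1.24 and 1.11. In macrophage-like cells, where sham was already high, the Isg15 ratio was -0.79 (95% interval -0.86 to -0.73), and in neutrophil-like cells, at 315, 369, 261 and 186 CPM, it was -0.50. Herc6, the main mouse ligase for ISG15, divided the same way, at 1.37 in endothelial-like and -0.95 in macrophage-like cells. Helz2, a helicase, was called higher in macrophage-like cells at 1.43, from 4.51 to 12.2 CPM, and was at 0.68 in endothelial-like cells and -0.14 in fibroblast-like cells.

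Of the nucleic acid sensors, Zbp1, a Z-form nucleic acid sensor that can start necroptosis, was the one called higher in all 4 abundant classes. It stood at 3.45, 6.26, 49.9 and 35.2 CPM in endothelial-like, 5.88, 8.28, 66.8 and 36.9 CPM in fibroblast-like, 23.5, 39.7, 113 and 77.1 CPM in macrophage-like and 16.6, 41.2, 148 and 138 CPM in neutrophil-like cells. In all 4 classes CLP was the highest library and control the lowest. The CLP over sham ratios were 2.98 (95% interval 2.60 to 3.41), 3.01 (95% interval 2.73 to 3.31), 1.51 (95% interval 1.38 to 1.64) and 1.83 (95% interval 1.25 to 2.50). The cytosolic RNA sensors separated the classes instead. Ifih1 was at 0.38 in endothelial-like cells and -1.33 (95% interval -1.48 to -1.19) in macrophage-like cells, where it stood at 91.8 CPM in sham and 36.5 CPM in CLP. Ddx60, a helicase that assists these sensors, stood at 46.8, 51.2, 15.7 and 12 CPM in macrophage-like cells, a ratio of -1.71 (95% interval -1.93 to -1.49), and was at 0.87 in fibroblast-like cells. Dhx58, the regulator LGP2, was called higher in endothelial-like (1.07) and fibroblast-like cells (1.09), and was at 0 counts in neutrophil-like cells of sham, so that CLP was at least 3.62-fold higher against a floor of 3 counts. Eif2ak2, the kinase PKR that stops translation, was called higher in neutrophil-like cells alone among the 4, at 2.08 (95% interval 0.22 to 5.35). The 3 Ifi200 family genes parted in fibroblast-like cells, where Ifi204 was at 1.91, Ifi207 at 1.32 and Ifi203 at -0.88. In macrophage-like cells Ifi203 stood at 171, 175, 60.8 and 19.7 CPM and was called lower, at -1.52 (95% interval -1.63 to -1.41).

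The IFIT family gave the clearest contrast between classes. All 4 members were called higher in endothelial-like cells, with a median ratio of 1.83. In macrophage-like cells all 4 were lower in CLP than in sham, with a median of -1.10, and 2 were called lower. Ifit1 stood at 36.6, 55.2, 175 and 57.2 CPM in endothelial-like cells, a ratio of 1.66 (95% interval 1.52 to 1.81), against -1.29 (95% interval -1.47 to -1.11) in macrophage-like cells. In fibroblast-like cells it stood at 17.2, 29.2, 55 and 39.4 CPM and in neutrophil-like cells at 0, 8.23, 25.9 and 28.9 CPM, at ratios of 0.91 and 1.60. Ifit3 stood at 61.1, 66.3, 266 and 135 CPM in endothelial-like cells, at 2.00, and at 15, 29.99, 16.2 and 13 CPM in macrophage-like cells, at -0.88. Ifit2 was at 1.25 in endothelial-like and -1.94 (95% interval -2.30 to -1.61) in macrophage-like cells. Ifit3b stood at 19.6, 21.5, 88.6 and 25.1 CPM in endothelial-like cells, at 2.04. The macrophage-like levels in CLP remained above those of control for Ifit1 and within 1.2-fold of control for Ifit2, Ifit3 and Ifit3b.

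The OAS family, enzymes that make the 2'-5' oligoadenylates which activate RNase L, behaved differently from IFIT in macrophage-like cells. There 5 of 6 were higher in CLP, with a median of 0.60, and 6 of 6 with TMM scaling. Oas3 was at 1.59 (95% interval 1.12 to 2.10) and Oas1g at 1.39 (95% interval 1.14 to 1.64), both called higher, and Oas1a stood at 23.3, 33.9, 61.5 and 17.1 CPM, at 0.86. In endothelial-like cells 4 of 5 counted members were called higher, with Oasl1 at 1.54, Oasl2 at 1.34, Oas1g at 1.34 and Oas1a at 1.27. Oasl2 stood at 44.5, 42.6, 108 and 33.5 CPM there. In neutrophil-like cells Oas1a was at 1.81 (95% interval 0.80 to 3.11) and Oas1g, with 0 counts in sham, was at least 2.5-fold higher.

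The PARP and DTX3L group, ADP-ribosylation enzymes of the antiviral response, lay close together in endothelial-like cells, between 0.85 and 0.96 for all 4, and none passed 2-fold. In fibroblast-like cells they lay between 0.24 and 0.76, and in macrophage-like cells between -0.47 and 0.34. Parp14 stood at 116, 129, 245 and 142 CPM in endothelial-like cells. By GENCODE vM21 the models of Parp9 (plus strand) and Dtx3l (minus strand) overlap on chromosome 16 at their 5' ends, whereas the method counts 3' ends. Whether the overlap touches their counts was not tested. In neutrophil-like cells Parp14 was called higher, at 1.85 (95% interval 0.84 to 3.15), as was Parp9, at 1.23 (95% interval -0.24 to 3.26), although the interval of Parp9 reached below 0.

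Among the restriction factors, Ifitm3, a membrane protein that blocks viral fusion, was the most abundant member of endothelial-like cells. It stood at 2728, 2735, 5875 and 7469.9 CPM there, at 1529, 1624, 3645 and 3505 CPM in fibroblast-like cells, at 1440.1, 1630.1, 2767 and 1414 CPM in macrophage-like cells and at 921, 1451, 2949.8 and 1202 CPM in neutrophil-like cells. The ratio was called higher in endothelial-like (1.10), fibroblast-like (1.17) and neutrophil-like cells (1.02) and was 0.76 in macrophage-like cells. Over all classes it was called higher in 9 of 11, more than any other member. Less abundant members were counted in fewer classes: Oasl2 was called higher in 7 of 9 counted, and Usp18 and Oas1g in 3 of 3. Bst2, which encodes tetherin and holds budding virus at the membrane, stood at 815, 956, 1183 and 465 CPM in endothelial-like, 139, 194, 289.7 and 96.9 CPM in fibroblast-like, 313, 427, 486 and 139.6 CPM in macrophage-like and 53.9, 46.1, 98 and 52.7 CPM in neutrophil-like cells. Its ratio was above 0 in 11 of 11 classes but called higher in 2. Rsad2 and Samd9l divided the endothelial-like (0.90 and 0.29) from the macrophage-like cells (-0.85 and -0.95). Rtp4 was above 0 in all 4 abundant classes, between 0.49 in macrophage-like and 1.06 in endothelial-like cells.

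Of the remaining members, Ifi27l2a, a small mitochondrial protein, was the most abundant in macrophage-like cells. It stood at 2009, 2423, 6309 and 1553 CPM, at 1.38 (95% interval 1.36 to 1.40) in CLP over sham, and made up 52.2% of the summed level of the 46 members in CLP. The sum of all members stood at 6473, 7617, 12093 and 5106 CPM in macrophage-like cells. Its CLP over sham ratio was 0.67, where the median member was at 0.01, so the sum followed this gene more than the typical member. In neutrophil-like cells Ifi27l2a stood at 1165, 1360.2, 878 and 216 CPM, at -0.63. Ifi44 stood at 0.637, 1.08, 7.29 and 1.43 CPM in fibroblast-like cells and 45.3, 68.8, 138 and 26.4 CPM in endothelial-like cells, at 2.71 (95% interval 1.95 to 3.66) and 1.00. Xaf1, a pro-apoptotic factor, was above 0 in 11 of 11 classes and reached 2.02 (95% interval 0.95 to 3.42) in neutrophil-like cells. Lgals3bp, a secreted glycoprotein, was called higher in fibroblast-like cells, from 77.2 to 185 CPM. Ddx58 (the RNA sensor RIG-I), Isg20, Cmpk2, Ifi35, Trim30a, Phf11b and Sp100 passed 2-fold in none of the 4 abundant classes, and in endothelial-like cells their ratios lay between 0.28 for Sp100 and 0.91 for Isg20. The lowest ratios of neutrophil-like cells belonged to Epsti1 (-0.97), Trim30a (-0.93) and Isg20 (-0.82).

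**Figure D3:**
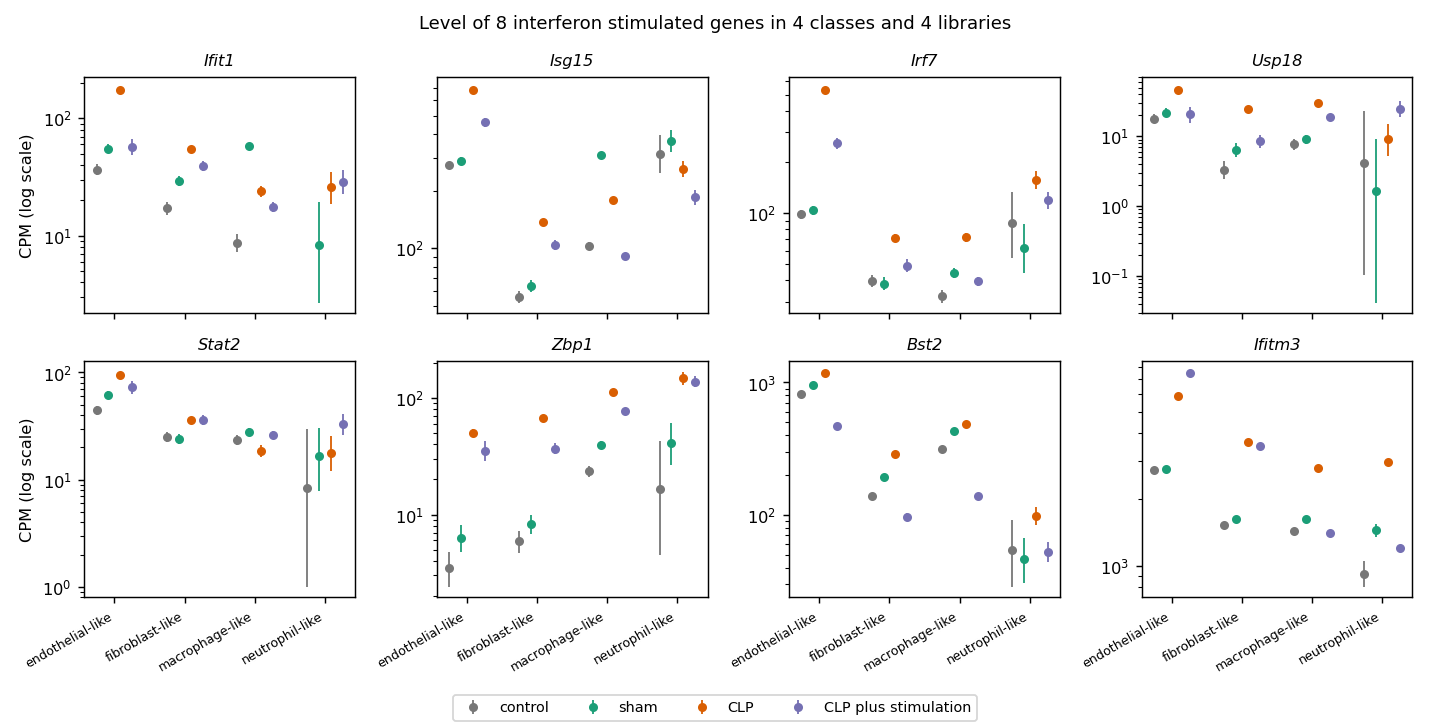
CPM (log scale) of 8 members in 4 classes and 4 libraries, with exact Poisson 95% intervals; libraries with 0 counts have no point. For Ifit1 in macrophage-like cells the sham library is highest, at 58.3 CPM, whereas in endothelial-like cells the CLP library is, at 175 CPM.

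The minor classes of the vessel wall and muscle had the same direction as endothelial-like cells in CLP over sham. In cardiomyocyte-like cells (159 and 215 cells) 16 of 16 counted members were higher, 12 called higher (11.1% of all genes) and 0 lower (8.79%). In smooth muscle-like cells (139 and 149 cells) 27 of 28 were higher, 15 called higher (4.28%) and 0 lower (4.38%). In pericyte-like cells (98 and 124 cells) 27 of 31 were higher, 15 called higher (4.68%) and 0 lower (5.68%). Endocardial-like cells, with 27 and 26 cells, had 9 of 14 called higher (12.3%) and 0 lower (6.1%). In these small classes a member reaches 20 counts more readily when it is high in 1 of the 2 libraries, which also holds for the share of all genes. Monocyte-like cells had 4 of 29 called higher (10.9%) and 2 lower (6.71%), T cell-like cells 7 of 18 higher (7.09%) and 1 lower (14.5%), and glial-like cells 3 of 15 higher (8.33%) and 0 lower (12.8%).

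In cardiomyocyte-like cells Irf7 stood at 31.5, 73.2, 233 and 44.4 CPM and Isg15 at 57.3, 60.3, 207 and 22.2 CPM, highest in CLP in both cases. Ifit1 had 0 counts in these cells of sham and 21 in CLP, at least 5.27-fold higher. Ifit3 stood at 14.3, 12.9, 84.2 and 11.1 CPM, at 2.54 (95% interval 1.00 to 5.07). In smooth muscle-like cells Irf7 was at 3.49 (95% interval 2.20 to 5.6), from 4 counts in sham to 43 in CLP, and Ifit1 at 4.49 (95% interval 2.50 to 10.45). Ifitm3 stood at 589.6, 482, 1579.5 and 1738 CPM there. In pericyte-like cells Irf7 stood at 41.6, 58.1, 261 and 98.7 CPM and Ifitm3 at 2327, 2308, 5293 and 3814 CPM, and the highest ratios were those of Isg20 (2.85) and Ifi204 (2.85). CLP was the highest library for Irf7 in each of these classes, and for Ifitm3 in pericyte-like but not smooth muscle-like cells. In monocyte-like cells Helz2 was highest at 1.85 (95% interval 0.21 to 4.39) and Oas3 lowest at -1.53 (95% interval -3.03 to -0.29). T cell-like cells of CLP numbered 24, in which Isg15 was at 2.11 (95% interval 1.59 to 2.67) and Ifitm3 at 2.88 (95% interval 2.52 to 3.28).

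CLP plus stimulation over CLP asks how the stimulated library differs from the septic one. Members were lower in the stimulated library in most classes. In endothelial-like cells 42 of 45 counted members were lower, with a median of -0.97 against -0.16 over all genes. There 22 were called lower, where 20.1% of all genes were, and 0 higher, where 8.84% were. In fibroblast-like cells 39 of 44 were lower, with a median of -0.63 against -0.22, 16 called lower (17.5%) and 1 higher (4.61%). In macrophage-like cells 37 of 46 were lower, with a median of -0.55 against 0.04, 11 called lower (8.44%) and 0 higher (8.81%). Without macrophage-like cells that held more than 1 neutrophil marker, a choice made after seeing the data, 7 were called lower. In neutrophil-like cells 23 of 45 were higher and 22 lower, with a median of 0.03, below the 0.42 of all genes. There 6 were called lower (3.5%) and 1 higher (18.9%). TMM scaling moved the median of all genes in neutrophil-like cells from 0.42 to 0.06 and the members' split to 13 higher and 32 lower. The shared called-lower members were 14 for endothelial-like and fibroblast-like cells, 63.6% and 87.5% of the 2 lists.

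The OAS family was the group with the lowest median in endothelial-like cells (-1.69), fibroblast-like cells (-1.59) and macrophage-like cells (-1.30), where 4 of 5, 3 of 4 and 5 of 6 counted members were called lower. Oasl2 was at -1.69 (95% interval -2.0 to -1.39) in endothelial-like, -1.60 (95% interval -1.84 to -1.37) in fibroblast-like and -1.46 (95% interval -1.63 to -1.30) in macrophage-like cells. Oas1a was at -2.15, -2.08 and -1.84 in the same order, and Oas2, at 18.4, 24.2, 48.2 and 8.47 CPM in endothelial-like cells, was at -2.50 (95% interval -3.15 to -1.93). Oasl1 was the exception in endothelial-like cells, at -0.08. In the IFIT family Ifit1 was at -1.61 (95% interval -1.85 to -1.38) in endothelial-like cells and -0.44 in macrophage-like cells, and Ifit3b was called lower in all 4 abundant classes.

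Bst2 was called lower in endothelial-like (-1.35), fibroblast-like (-1.58) and macrophage-like cells (-1.80), and its level in the stimulated library was the lowest of the 4 in all 3 classes. Ifi203 reached the lowest ratio among endothelial-like cells. It stood at 271, 318, 259.6 and 28.8 CPM there, at -3.17 (95% interval -3.50 to -2.86), at 67.6, 75.7, 41.2 and 30.5 CPM in fibroblast-like cells and at 45.6, 34.6, 21.6 and 4.36 CPM in neutrophil-like cells. The stimulated library was the lowest in each of these classes and in macrophage-like cells. Ifi27l2a had the lowest ratio in fibroblast-like cells, at 2304, 2416, 3277 and 376 CPM and -3.12 (95% interval -3.17 to -3.08). In macrophage-like cells it was at -2.02 and in neutrophil-like cells at -2.02. Ifi44 was at -2.38 in endothelial-like cells and -2.32 in fibroblast-like cells, Ddx60 at -2.37 and -1.96 in the same order, and Cmpk2, a mitochondrial nucleotide kinase next to Rsad2 in the genome, at -2.18 in endothelial-like cells.

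Other members differed less, or in opposite directions between classes. Ifitm3 was at 0.35 (95% interval 0.32 to 0.37) in endothelial-like cells and -0.06 in fibroblast-like cells, and made up 67.4% of the summed level of the stimulated endothelial-like cells. It was at -0.97 in macrophage-like and -1.29 in neutrophil-like cells. Irf7 was at -1.06 in endothelial-like, -0.54 in fibroblast-like, -0.87 in macrophage-like and -0.41 in neutrophil-like cells. Stat2 was at -0.40, 0.02, 0.49 and 0.87 in that order, and Zbp1 at -0.50, -0.86, -0.55 and -0.10. Usp18 was called lower in endothelial-like (-1.14) and fibroblast-like cells (-1.54) and higher in neutrophil-like cells, at 1.41 (95% interval 0.61 to 2.35), which was 0.96 with doublets kept in. Isg15 stayed under 2-fold in all 4 classes, between -0.98 in macrophage-like and -0.39 in fibroblast-like cells. Ifi207 was at 0.66 in fibroblast-like cells, at 90.1, 86.7, 217 and 343 CPM.

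**Figure D4:**
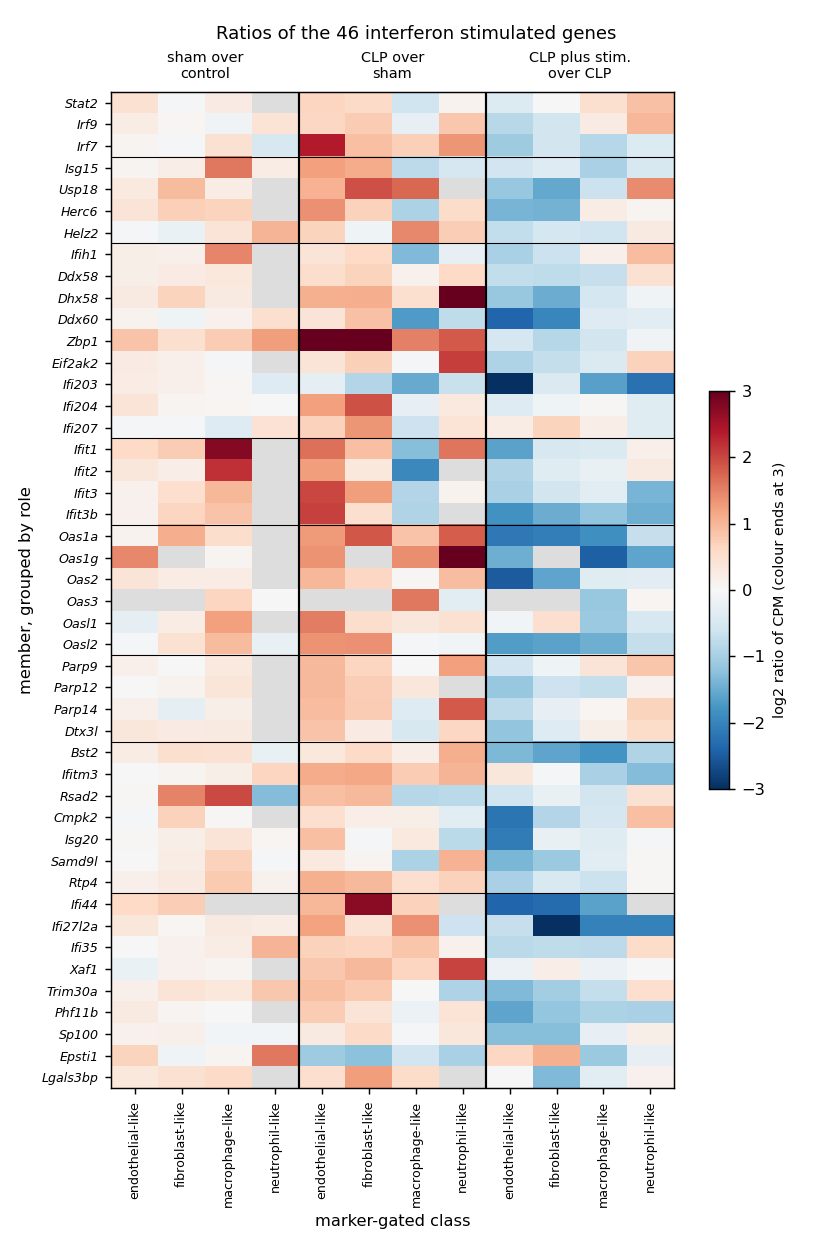
Log2 ratio of CPM (colour) of the 46 members, one per row and grouped by role, in 4 classes and 3 comparisons of 2 libraries; grey cells had fewer than 20 counts. The IFIT rows are red in endothelial-like and blue in macrophage-like cells for CLP over sham (medians 1.83 and -1.10).

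Among minor classes, cardiomyocyte-like cells had the lowest median in this comparison, -2.43, from 215 and 61 cells. There 10 of 14 counted members were called lower (14.7% of all genes) and 1 higher (11%). In small classes a member high in the library with more UMIs reached 20 counts more readily. For cardiomyocyte-like cells that library was CLP, with 308825 UMIs of the class against 90156, so this median is not like for like. In the stimulated cardiomyocyte-like cells 20 members had 0 counts, and the median lay between -2.73 and -1.47 under the alternatives. Ifi203 and Ifit1 had 0 counts in these cells of the stimulated library, at least 2.92-fold and 2.04-fold lower against a floor of 3 counts in that library. Pericyte-like cells had 14 of 29 called lower (13.4%) and 0 higher (7.21%), and smooth muscle-like cells 10 of 22 lower (11.4%) and 0 higher (6.39%). In smooth muscle-like cells Ifit1 had 0 counts in the stimulated library, at least 2.69-fold lower. Monocyte-like cells had 18 of 40 called lower (6.46%) and 1 higher (19.3%), with Ifi27l2a at -3.06 (95% interval -3.18 to -2.94) and Oasl2 at -2.48 (95% interval -3.28 to -1.73). T cell-like cells had 8 of 36 called higher (24.1%) and 5 lower (6.86%). There Dtx3l was highest at 2.18 (95% interval -0.26 to 7.63), from 1 count in the 24 cells of CLP, and Parp9 was at 1.78 (95% interval -0.08 to 4.91), while Ifi27l2a was lowest at -2.01 (95% interval -2.21 to -1.82).

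CLP plus stimulation and sham, set side by side as an added comparison, were close in the median member of endothelial-like cells (-0.09) and fibroblast-like cells (-0.05), although the members were not at sham level one by one. In endothelial-like cells 5 were called higher (8.31% of all genes) and 8 lower (24.5%), and in fibroblast-like cells 6 higher (7.23%) and 6 lower (25.3%). TMM scaling turned both medians above 0, to 0.09 and 0.17. In macrophage-like cells 1 was called higher (8.29%) and 15 lower (21.1%), with a median of -0.42, and in neutrophil-like cells 14 higher (25.4%) and 5 lower (11.3%). T cell-like cells stood apart, with 21 of 37 called higher (18.9%) and 2 lower (10.7%) and a median of 1.11 against 0.19 over all genes. Here too, a member high in the library with more UMIs reached the minimum count more readily. For T cell-like cells that library was CLP plus stimulation, with 1481140 UMIs against 793915 in sham, so this median is not like for like. The median lay between 0.62 and 1.47 under the alternatives, and the summed level of the 46 members was at 0.22. Monocyte-like cells had 3 of 40 higher (30.2%) and 12 lower (9.27%), B cell-like cells 5 of 21 higher (9.85%) and 2 lower (7.51%), and NK cell-like cells 0 of 7 higher (10.7%) and 1 lower (7.54%). Pericyte-like cells had 2 of 17 higher (8.55%) and 3 lower (16.6%), smooth muscle-like cells 3 of 12 higher (10.4%) and 1 lower (16.7%), and cardiomyocyte-like cells 2 of 5 higher (11.4%) and 1 lower (12.5%). These ratios share libraries with the 2 comparisons above.

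The level per cell was read next. After thinning to 1000 UMIs, a median endothelial-like cell held 5, 5, 12 and 10 UMIs of the 46 members. Cells at the 10th percentile held 2, 2, 6 and 5, so the higher summed level in CLP was not limited to a few cells. Ifitm3 made up 43.3%, 40.6%, 45.2% and 67.4% of this sum in the class, so the sum per cell follows that gene more than the median member, above all in the stimulated library. Macrophage-like cells held a median of 6, 7, 10 and 4, and fibroblast-like cells 4, 4, 9 and 5. IFIT transcripts were rarer. The share of endothelial-like cells with an IFIT UMI was 12.5%, 13.4%, 39.1% and 19.8% in the 4 libraries, and without thinning 25.9%, 37.0%, 68.7% and 47.7%. In macrophage-like cells it was 2.81%, 8.06%, 3.75% and 2.67%, and without thinning 7.69%, 22.3%, 17.7% and 10.9%.

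The other genes of the pathway, 44 in a list of ligands, receptors, sensors and inhibitors, were read against the same background. In CLP over sham, where 4.54% of all genes were called higher and 7.01% lower in endothelial-like cells, 0 of 8 counted receptors and kinases were called higher in that class and 0 lower, and 0 of 15 upstream sensors and adaptors were called higher and 1 lower. In macrophage-like cells, where the shares of all genes were 5.26% and 17.5%, 2 of 8 receptors and kinases, Ifngr1 (-1.07) and Tyk2 (-1.22), were called lower and 0 higher. Of 17 upstream sensors and adaptors there, 14 were lower, 2 called lower and 1 higher. Of the negative regulators, 0 of 7 counted passed 2-fold in either class. With lists this short nothing is read from these counts. Ifnar1 stood at 46.7, 46.4, 42.1 and 40.3 CPM in endothelial-like and 49.2, 53.7, 38.9 and 47.5 CPM in macrophage-like cells. Irf1, an early transcription factor of both interferon types, stood at 195, 132, 32.9 and 79.2 CPM in macrophage-like cells, at -2.0 (95% interval -2.15 to -1.85) and then 1.26. Ikbke, a kinase that activates IRF3 and IRF7, stood at 1.68, 2.95, 47.3 and 42 CPM in macrophage-like cells, at 3.99 (95% interval 3.61 to 4.42) in CLP over sham, and at 0, 3.29, 58.6 and 289 CPM in neutrophil-like cells. Tyk2 stood at 16.4, 18.2, 19.5 and 3.05 CPM in endothelial-like cells, called lower in the stimulated library at -2.65 (95% interval -3.82 to -1.73). Ifng, the type II interferon, stood at 2, 4.51, 0.952 and 2.94 CPM in macrophage-like cells.

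Members with a GAAANNGAAA match upstream were next compared with members without one. In CLP over sham, the median ratio was 0.90 for the 14 counted members with a match and 0.75 for the 22 without in endothelial-like cells, and 0.87 (13) and 0.65 (22) in fibroblast-like cells. In macrophage-like cells it was -0.62 for the 15 with a match and 0.15 for the 22 without. Of the 15 with a match, 2 were called higher and 3 lower in that class. The printed promoters were partly chosen by their ratio there and bear nothing on this comparison. In CLP plus stimulation over CLP the medians were -1.41 and -0.94 in endothelial-like cells, -0.95 and -0.47 in macrophage-like cells, and -0.56 and -0.63 in fibroblast-like cells. No test was made of these differences.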

How the data were processed

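The deposited matrices hold UMI counts for each gene in each barcode. The authors ran Cell Ranger (version 5.0.0 in the file headers) and aligned to mm10 per the submitters' processing notes. The matrices were already filtered to called cells (43074 barcodes). Kept cells had at least 500 UMIs, at least 200 genes and at most 20% mitochondrial UMIs. Scrublet (in scanpy 1.11.5, seed 0) scores were used to leave out as doublets the highest 0.8% for each 1000 barcodes of a library, which left 37540 cells. Counts were summed per library and class and scaled to CPM. Ratios had a prior of 0.5 counts and exact conditional binomial intervals (95%), levels exact Poisson ones, and shares exact binomial ones. Genes at 0 counts in 1 library are given as bounds against a floor of 3 counts in that library. With 1 library a group, no test was made. Named members followed a fixed rule: 8 members in 4 classes, and the 3 highest and 3 lowest ratios of a class (2 in minor classes) among counted members with at least 20 CPM in the higher library. A few others were named after their values were seen. Members and lists were chosen with earlier results of these data known. The gate and ratios were checked on simulated data. The alternatives were TMM scaling, another prior, no minimum count, no doublet removal, a mitochondrial limit of 10%, a marker lead of 2, thinning, and an added limit of 1 neutrophil marker.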

Additional observations from a re-analysis of the deposited data

Results flagged for a closer look

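The results here are members at least 2-fold higher in one class and at least 2-fold lower in another under the same 2 libraries. The difference between classes was not tested, since each group has 1 library. In sham over control, Rsad2 was at 1.98 in macrophage-like and 1.48 in fibroblast-like cells, and at -1.29 in neutrophil-like cells. In CLP over sham, Ifit1 was at 1.66 in endothelial-like and 1.60 in neutrophil-like cells and at -1.29 in macrophage-like cells, and Ifit2 was at 1.25 in endothelial-like and -1.94 in macrophage-like cells. In CLP plus stimulation over CLP, Usp18 was at 1.41 in neutrophil-like cells, at -1.14 in endothelial-like cells and at -1.54 in fibroblast-like cells, and Epsti1 was at 1.07 in fibroblast-like cells and -1.12 in macrophage-like cells. Some of these calls depend on a setting. With doublets kept in, Rsad2 in neutrophil-like cells was at -0.99 and Usp18 in neutrophil-like cells at 0.96, both short of 2-fold, and with a marker lead of 2 Ifit1 in neutrophil-like cells was at 0.97. Epsti1 was the 1 member called higher in fibroblast-like cells, and 0 were called higher with a prior of 2, with doublets kept in, with a lead of 2 and after thinning.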

How the results depend on the processing

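No paired analysis was possible because each group has 1 library, and for the same reason no library could be left out. The endothelial-like medians kept their sign under every alternative run, between 0.91 and 1.07 in CLP over sham and between -1.06 and -0.94 in CLP plus stimulation over CLP. The fibroblast-like medians also kept theirs, between 0.71 and 0.94 and between -0.73 and -0.48. The macrophage-like median in CLP over sham, near 0, lay between -0.11 and 0.20 and changed sign in 4 of 8 alternatives. Depth limits the minor classes, several of which held under 60 cells in a library, and every value rests on 1 library a group.

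With TMM scaling the median was 1.07 in endothelial-like cells for CLP over sham (27 called higher in place of 18) and 0.10 for sham over control. 0 were called lower in the first comparison, and 10 were called lower in neutrophil-like cells for CLP plus stimulation over CLP. After thinning, the median was 0.12 in endothelial-like cells and -0.23 in neutrophil-like cells for sham over control, and 0.94 in fibroblast-like cells for CLP over sham. Thinning left 0 endothelial-like members called higher and 1 lower in sham over control, and 0 called lower in endothelial-like and fibroblast-like cells in CLP over sham. It left 0 fibroblast-like members called higher in CLP plus stimulation over CLP. In neutrophil-like cells it left 0 higher in sham over control, 5 higher in CLP over sham and 3 lower in CLP plus stimulation over CLP.

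With no minimum count, sham over control had 2 called higher in endothelial-like cells, 1 lower in fibroblast-like cells, and 7 higher and 3 lower in neutrophil-like cells, and the monocyte-like median turned from -0.19 to 0.052. With a prior of 2, sham over control had 1 called higher in fibroblast-like and 2 in neutrophil-like cells, and CLP plus stimulation over CLP 0 higher in fibroblast-like cells. With doublets kept in, sham over control had 0 called higher in endothelial-like, 1 in fibroblast-like, and 2 higher and 0 lower in neutrophil-like cells. CLP over sham then had 0 lower in endothelial-like cells, and CLP plus stimulation over CLP 0 higher in fibroblast-like and neutrophil-like cells. With a marker lead of 2, sham over control had 1 higher in fibroblast-like cells, CLP over sham 0 lower in endothelial-like and 1 lower in neutrophil-like cells, and CLP plus stimulation over CLP 0 higher in fibroblast-like and 3 higher in neutrophil-like cells. A mitochondrial limit of 10% gave 2 higher in neutrophil-like cells there. With at most 1 neutrophil marker, chosen after seeing the data, 7 macrophage-like members were called lower in CLP plus stimulation over CLP. Among single members, Ifi27l2a turned to 0.48 in NK cell-like cells for CLP plus stimulation over sham and to -0.17 in cardiomyocyte-like cells for sham over control after thinning, and Ifit2 to -0.81 in pericyte-like cells for sham over control with a lead of 2. The cause of these shifts was not tested.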

Other observations

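Cells assigned to no class numbered 1757, 832, 1170 and 1962 in the control, sham, CLP and stimulated libraries, with median depths of 993, 1265, 1393.5 and 1090.0 UMIs. Their summed level of the 46 interferon stimulated genes was 4412, 5285, 9397 and 4534 CPM, highest in CLP.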
